A study of Mus musculus with 130 samples.

Results

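The 20 strains with the highest and the 20 strains with the lowest liver level of Cdkn1a were compared within a panel of iron-fed inbred mice. The members were chosen by the TPM (transcript counts scaled to gene length and library size) of Cdkn1a: of the ranked panel strains 40 are members and the other 73 lie between the groups. A further 2 panel libraries, the second mouse of 129X1/SvJ and the one labelled BXD65/RwwJ, were not ranked, and the whole series has 130 libraries. The ranking used Cdkn1a itself, so its level in the panel is given as a description with no test, and the other genes are what was measured between the groups.

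Cdkn1a encodes p21, an inhibitor of cyclin-dependent kinases that holds cells before DNA synthesis. It is a classical target of the transcription factor p53 (gene Trp53), and glucocorticoids, FoxO factors, amino acid shortage and the circadian clock are also known to act on it. In the liver p21 is known for restraining hepatocyte division after injury and for marking senescent cells. Other p53 targets have separate roles: Mdm2 returns p53 to a low level, Bax and Pmaip1 act in apoptosis, and Btg2 and the sestrins slow growth.

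All panel mice were male and received chow for 4 weeks and then a diet with 2% carbonyl iron (20000 ppm) for 6 weeks. There was 1 mouse per strain, so a strain and its mouse cannot be told apart, and p-values measure the spread between such mice. RNA came from a sample of the large lobe and was prepared with a stranded mRNA kit. A second experiment in the same series gave 3 C57BL/6J males each 1 of 5 diets. The labels give no age, time of collection or batch.

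The high group held 10 BXD strains from C57BL/6J and DBA/2J (BXD21/TyJ, BXD22/TyJ, BXD24/TyJ-Cep290<rd16>/J, BXD27/TyJ, BXD32/TyJ, BXD36/TyJ, BXD38/TyJ, BXD51/RwwJ, BXD74/RwwJ and BXD87/RwwJ), of which BXD24 also carries the rd16 allele of Cep290. BXH2/TyJ, BXH8/TyJ and BXA12/PgnJ were the other recombinant inbred strains there, and the remaining 7 were NZB/BlNJ, FVB/NJ, NOD/ShiLtJ, NOR/LtJ, BTBR T<+> tf/J, NON/ShiLtJ and AKR/J. The low group held 7 BXD strains (BXD14/TyJ, BXD18/TyJ, BXD28/TyJ, BXD31/TyJ, BXD34/TyJ, BXD39/TyJ and BXD70/RwwJ) and 5 AXB/BXA strains (AXB13/PgnJ, AXB19b/PgnJ, BXA4/PgnJ, BXA8/PgnJ and BXA26/PgnJ). It also held CXB2/ByJ, CXB12/HiAJ and BXH10/TyJ, with BALB/cByJ, CE/J, DBA/2J, C57BLKS/J and CBA/J as the other 5. The families were therefore unevenly spread, and the counts of most gene lists below are also given for the 17 BXD strains alone, which share 1 pair of parents.

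Cdkn1a (ENSMUSG00000023067, GRCm38 chromosome 17, 29090976 to 29100727, plus strand) ranged from 0.413 TPM in CBA/J to 141.2 TPM in NZB/BlNJ, a 342-fold span with a median of 12.1 TPM. The high strains lay between 48.5 and 141.2 TPM (median 76.6) and the low strains between 0.413 and 2.43 TPM (median 1.79), and the group medians differed 42.8-fold. The level was continuous across both thresholds. BXD36/TyJ was the last strain inside the high group at 48.5 TPM and the first strain outside it had 48.05 TPM, while BXH10/TyJ closed the low group at 2.43 TPM against 2.52 TPM in the next strain. From 828 to 2887 estimated counts stood behind the high values and from 9 to 52.4 behind the low ones.

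**Figure D1:**
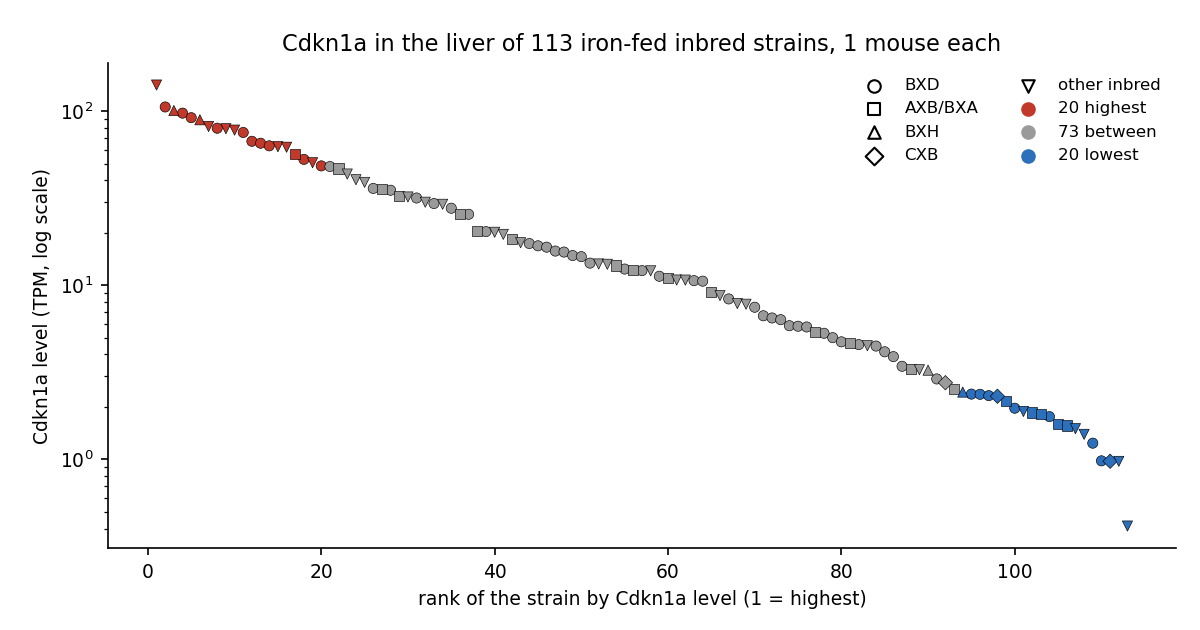
Cdkn1a level in TPM on a log axis against the rank of each strain, with colour for the group and marker shape for the strain family. The 20 highest strains lie between 48.5 and 141.2 TPM and the 20 lowest between 0.413 and 2.43 TPM, with the 73 others forming an unbroken series between them.

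Both extremes drew on several pedigrees. The 55 ranked BXD strains ran from 0.979 to 105.7 TPM, while their parents C57BL/6J and DBA/2J had 19.6 and 1.39 TPM. Thus BXD strains reached above the higher parent and below the lower one, although each parent is also only 1 mouse. The 20 AXB/BXA strains ran from 1.56 to 56.6 TPM, with A/J at 7.84 TPM. Close relatives could also differ widely: AXB19a/PgnJ had 46.8 TPM, AXB19/PgnJ 4.63 TPM and AXB19b/PgnJ 1.60 TPM. BALB/cJ had 13.2 TPM against 1.88 TPM in BALB/cByJ. The mice of 129X1/SvJ gave 7.77 and 14.8 TPM, the only pair of one strain in the panel.

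Library size did not separate the groups, with 10.2 to 15.4 M counts in the high and 10.4 to 13.3 M in the low strains. Mitochondrial transcripts took 4.81 to 10.3% and 5.15 to 8.92% of them. The 50 genes with most counts took a larger part in the high strains, 37.6 to 48.1% (median 42.04) against 35.9 to 42.3% (median 38.95). Genes with counts numbered 17385 to 18926 (median 18292) in the high and 17612 to 18307 (median 17922.5) in the low strains. The libraries least like the others (median Spearman rho over genes) were NZB/BlNJ at 0.866, BXH2/TyJ at 0.900 and BTBR T<+> tf/J at 0.909, all in the high group. Hepatocyte genes defined the tissue in both groups: albumin (Alb) ran, in CPM (counts scaled to library size), from 54285 to 138285 CPM (median 90312) in the high and 64056 to 97796 CPM (median 76678) in the low strains. No gene of a list of 12 exocrine pancreas genes passed the filter on low counts. Summed globin transcripts, a measure of blood in the piece, were higher in the high strains (1.10 to 2348 CPM, median 574) than in the low strains (1.77 to 716 CPM, median 60.8), with overlapping ranges.

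The groups differed across much of the transcriptome. Of 13097 genes tested other than Cdkn1a, 7010 (53.5%) were called at an adjusted p under 0.05 in edgeR, 3818 higher (29.2%) and 3192 lower (24.4%) in the high strains. Most differences were small: 860 called genes passed 2-fold, 537 of them higher and 323 lower, and the median log2 difference of all genes was 0.03. In 22 genes (0.168%) every high strain lay above every low strain, and in 38 genes (0.29%) every high strain lay below. A list's count is read against these shares throughout, and with more than every second gene called, a share near them says little about a list. Without NZB/BlNJ, BXH2/TyJ or BTBR T<+> tf/J, each left out alone, 6739, 6780 and 6765 genes were called.

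The same genes were then followed in strains and subsets that bear on the ranking. Among the BXD strains alone, 10 high and 7 low, 3702 of 13256 genes (27.9%) were called, 1876 higher (14.2%) and 1826 lower (13.8%). In the 73 strains that belong to neither group, expression was fitted on log2 Cdkn1a. There 2971 of 13921 genes (21.3%) had a slope, 1553 upward (11.2%) and 1418 downward (10.2%). Of these, 2603 were also called between the extremes, which is 37.1% of the calls and 90.9% of the slopes of genes tested both ways, and 2602 had the same direction. A test of whether the difference was unlike in BXD and other strains called 0 genes in edgeR, with 1112 at an unadjusted p under 0.05.

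Clock genes were among those that separated the groups most fully. Arntl (Bmal1) is a core activator of the circadian clock and Dbp is an output gene that peaks when Arntl RNA is low, so their ratio follows the time of the clock in the liver. Dbp ran from 3.56 to 76.7 CPM (median 18.2) in the high strains and from 106.5 to 268 CPM (median 202.04) in the low strains, so every high strain was below every low strain, with a log2 difference of -2.94 (SE 0.30, adjusted p = 3.94e-10). Arntl was 1.4 to 37.1 CPM (median 9.17) against 0.18 to 1.7 CPM (median 0.867), higher by 3.80 (SE 0.32, adjusted p = 9.37e-12) on the log2 scale, with a small overlap. The log2 ratio of Arntl to Dbp lay between -5.62 and 2.83 (median -0.81) in the high strains and between -9.23 and -6.19 (median -7.59) in the low strains. The ranges did not meet. Over all ranked strains the ratio had a Spearman rho of 0.79 with Cdkn1a, over the 55 BXD strains 0.77 and over the 73 strains between the groups 0.52, where both quantities come from the same libraries.

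**Figure D2:**
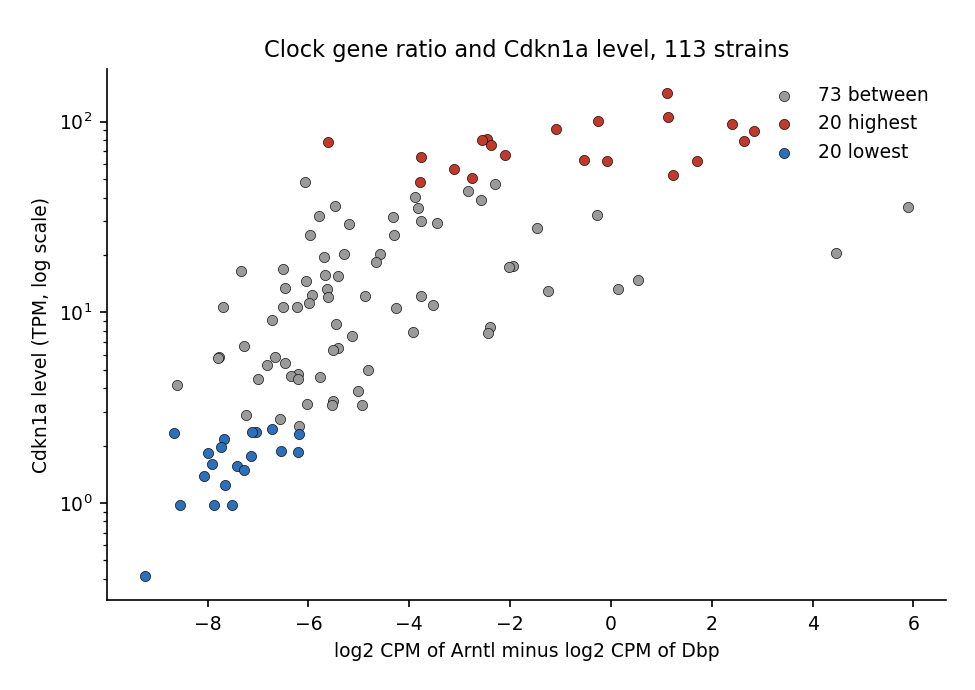
Cdkn1a in TPM on a log axis against the log2 ratio of Arntl to Dbp in each ranked strain, coloured by group. High strains lie at ratios of -5.62 and above and low strains at -6.19 and below, while the 73 other strains span -8.61 to 5.89.

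Of the 73 other strains, 20 were at or below the highest ratio of the low group and 41 were at or above the lowest ratio of the high group. With the ratio as a term in the fit, 1985 genes (15.2%) were called between the groups, 895 higher (6.83%) and 1090 lower (8.32%). Of these, 1815 were also called without the term (25.9% of the calls), 1811 in the same direction. Since the groups do not share a value of the ratio, this fit rests on the spread within each group, and clock time, strain and Cdkn1a level cannot be told apart by it. Most gene lists below are therefore also given with their count under this term and, in parentheses, with the median log2 difference of the list in that fit, since a call can be lost while the difference stays. Of 18 tested clock genes, Arntl and Dbp among them, 6 were higher and 9 lower. The repressor Nfil3 was higher by 1.60 (SE 0.22, adjusted p = 2.30e-07) and Tef, a relative of Dbp, lower, at a log2 difference of -0.82 (SE 0.11, adjusted p = 1.66e-07). Both changed sign with the ratio as a term, to -0.22 (adjusted p = 0.707) and 0.17 (adjusted p = 0.468). Within the BXD family 5 were higher and 7 lower, and with the ratio as a term the clock list had 4 higher and 0 lower of 18 (median 0.15). These 18 still include Arntl and Dbp, whose ratio is the term, so this last count and median are in part set by the term itself.

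Promoter letters of the clock genes are shown because these genes move in opposite directions. The E-box CACGTG, the element bound by the Arntl and Clock complex, stood in the 250 bases before the RefSeq start of 5 of 16 clock genes with a window (31.2%) and of 6.86% of 27025 genes. Motifs were read on both strands, and a match is a description, not a site. Ciart, a clock repressor, had 3 of them, in capitals (GRCm38.p6, chr3:95882252-95882478, minus strand, written 5′ to 3′):
Ciart: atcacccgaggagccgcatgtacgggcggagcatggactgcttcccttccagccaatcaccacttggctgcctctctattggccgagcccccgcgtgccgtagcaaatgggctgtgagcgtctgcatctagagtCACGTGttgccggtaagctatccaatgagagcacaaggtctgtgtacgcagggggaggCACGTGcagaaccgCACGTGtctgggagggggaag
Ciart itself was not called, at 2.61 to 72.9 CPM (median 15.8) in the high and 6.65 to 41.5 CPM (median 21.3) in the low strains, a log2 difference of -0.24 (SE 0.27, adjusted p = 0.478).

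The p53 targets rose as a list of single genes rather than as a uniform block. Of 28 tested p53 targets other than Cdkn1a, 16 were higher (against 29.2% of all genes) and 1 was lower, with a median log2 difference of 0.43. Btg2 had the largest difference, and several genes that p53 is best known for did not pass the test. Among the BXD strains 7 of 27 were higher and 1 lower. In the 73 strains between the groups 7 of 28 had an upward and 1 a downward slope. With the clock ratio as a term 4 of 28 were higher and 1 lower (median 0.28).

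**Figure D3:**
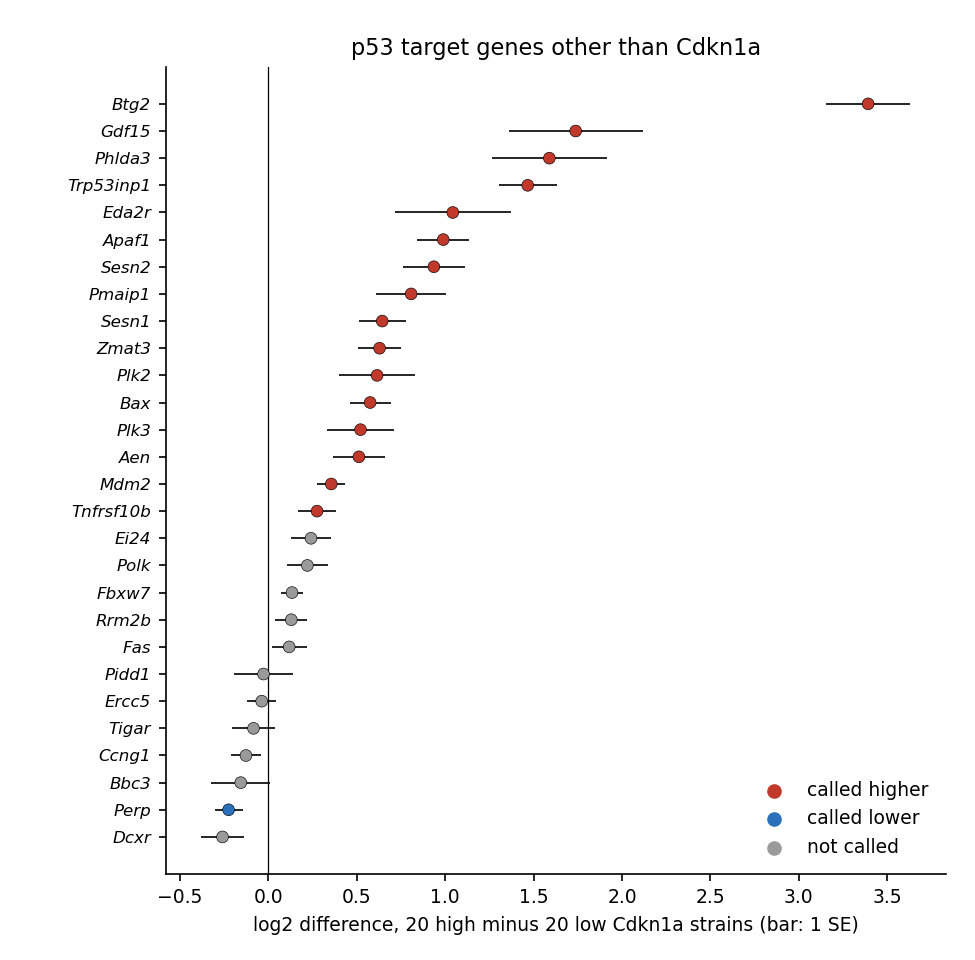
Log2 difference of each tested p53 target between the 20 high and the 20 low strains, with a bar of 1 SE and colour for the call. Btg2 lies farthest to the right at 3.39 and Perp is the 1 gene called lower, at -0.23.

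The sequence before Cdkn1a is given because the ranking turns on this gene. Matches to the p53 half-site, a 10-base consensus with ambiguous letters, are in capitals (GRCm38.p6, chr17:29090729-29090975, plus strand):
Cdkn1a: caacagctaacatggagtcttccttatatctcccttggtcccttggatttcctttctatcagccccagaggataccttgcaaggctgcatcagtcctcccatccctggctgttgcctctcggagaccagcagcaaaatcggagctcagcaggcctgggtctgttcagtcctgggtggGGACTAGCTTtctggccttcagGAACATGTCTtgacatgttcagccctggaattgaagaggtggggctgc
The same window of Mdm2 held 1 match (chr10:117710759-117711008, minus strand):
Mdm2: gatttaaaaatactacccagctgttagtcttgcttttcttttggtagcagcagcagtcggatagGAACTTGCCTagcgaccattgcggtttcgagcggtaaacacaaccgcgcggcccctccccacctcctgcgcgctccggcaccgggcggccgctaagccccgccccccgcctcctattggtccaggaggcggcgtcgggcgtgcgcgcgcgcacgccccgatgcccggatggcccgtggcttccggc
Such a match stood in 7 of 24 p53 targets with a window (29.2%: Aen, Bax, Ccng1, Ei24, Mdm2, Polk and Sesn1) and in 8.2% of all 27025 genes. The matches did not sort the targets that rose from the others, since Ccng1, Ei24 and Polk held one and were not called, while Btg2 and Trp53inp1 held none in this window.

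Btg2 (chromosome 1, 134075170 to 134079120, minus strand), an antiproliferative gene, was the p53 target with the largest difference. It ran from 43.6 to 235 CPM (median 112.3) in the high strains and 4.41 to 27.6 CPM (median 9.49) in the low strains. Every high strain lay above every low strain, and the log2 difference was 3.39 (SE 0.24, adjusted p = 6.26e-14). In the 73 strains between the groups Btg2 rose by 0.64 (adjusted p = 1.91e-07) per doubling of Cdkn1a, and it remained called with the clock ratio in the fit, at 3.69 (adjusted p = 8.01e-08).

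The stress-responsive targets Trp53inp1, Sesn2 and Gdf15 rose with overlap. Trp53inp1, which promotes p53 activity and autophagy, was at 117 to 521.3 CPM (median 162) against 41.3 to 117 CPM (median 68.2), a log2 difference of 1.47 (SE 0.16, adjusted p = 2.99e-09). Sesn2, a brake on mTORC1 signalling, was at 10.3 to 42.5 CPM (median 17.4) against 3.47 to 19.996 CPM (median 9.81), a difference of 0.94 (SE 0.17, adjusted p = 2.36e-05). The stress hormone gene Gdf15 differed by 1.74 (SE 0.38, adjusted p = 1.99e-04), from 0.949 to 40.2 CPM against 0.631 to 12.5 CPM. Sesn2 and Gdf15 also belong to the integrated stress list below, so they count there too. With the clock ratio as a term none of these 3 remained called, at adjusted p of 0.056, 0.432 and 0.134.

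Targets of the death and feedback branches differed to unequal degrees. Apaf1, the core of the apoptosome, was higher by 0.99 (SE 0.15, adjusted p = 8.42e-07) and the pore-forming Bax by 0.58 (SE 0.12, adjusted p = 6.92e-05). The BH3-only gene Pmaip1 (Noxa) rose by 0.81 (SE 0.20, adjusted p = 7.51e-04), whereas Bbc3 (Puma), of the same class, had a log2 difference of -0.16 (SE 0.17, adjusted p = 0.441). Phlda3, an inhibitor of Akt, rose by 1.59 (SE 0.33, adjusted p = 9.38e-05) and Eda2r, a receptor of the tumour necrosis factor family, by 1.04 (SE 0.33, adjusted p = 0.00734), both from low levels under 10 CPM. Mdm2, which marks p53 for degradation, was at 26.5 to 70.6 CPM (median 34.6) against 23.8 to 33.1 CPM (median 27.9), a rise of 0.36 (SE 0.08, adjusted p = 2.47e-04).

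Several canonical targets did not move with the ranking. Ccng1, among the most regular p53 responders, was at 25.4 to 65.96 CPM (median 34.3) in the high and 29.5 to 43.8 CPM (median 39.3) in the low strains, with a log2 difference of -0.13 (SE 0.08, adjusted p = 0.202), and was lower within the BXD strains at -0.39 (adjusted p = 0.00333). Fas differed by 0.12 (SE 0.10, adjusted p = 0.321), Tigar by -0.08 (SE 0.12, adjusted p = 0.582) and Pidd1 by -0.03 (SE 0.16, adjusted p = 0.9). With the clock ratio as a term Fas changed sign. Perp was lower, at -0.23 (SE 0.08, adjusted p = 0.0163). Tnfrsf10b was called at 0.28 (SE 0.11, adjusted p = 0.0289), a call that ended when any of several single strains was left out, with an adjusted p of up to 0.0691.

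The upstream genes differed little. Trp53 itself was at 9.53 to 33.9 CPM (median 17.8) against 12.6 to 19.99 CPM (median 16.2), a log2 difference of 0.22 (SE 0.10, adjusted p = 0.058), and Mdm4 at -0.03 (SE 0.04, adjusted p = 0.556). The kinase gene Atr rose by 0.54 (SE 0.07, adjusted p = 1.43e-07), the phosphatase gene Ppm1d, itself a p53 target that switches the response off, by 0.56 (SE 0.10, adjusted p = 1.53e-05) and the deubiquitinase gene Usp7 by 0.29 (SE 0.06, adjusted p = 3.43e-05). Thus 3 of 7 tested p53 regulators rose and none fell. The BXD strains had 2 higher and 0 lower of 7, and the fit with the clock ratio 1 higher and 0 lower of 7 (median 0.30).

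Other CDK inhibitors differed little, and in both directions. Of 4 tested, Cdkn1c (p57) was higher by 0.56 (SE 0.17, adjusted p = 0.00672), and it had a downward point estimate of -0.07 (adjusted p = 0.468) per doubling of Cdkn1a in the 73 strains between the groups. Cdkn1b (p27) was higher by 0.17 (SE 0.07, adjusted p = 0.0409) and Cdkn2c (p18) lower, at a log2 difference of -0.38 (SE 0.15, adjusted p = 0.0351). The call of Cdkn2c ended without CE/J, NOD/ShiLtJ or NZB/BlNJ, with an adjusted p of up to 0.0768 (without CE/J), and that of Cdkn1b ended without any of 20 single strains, with up to 0.104 (without BXA26/PgnJ). In the BXD strains the list had 1 higher and 0 lower of 4, and with the clock ratio 0 higher and 0 lower of 4 (median 0.33). The senescence marker genes Cdkn2a and Cdkn2b did not pass the filter on low counts.

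Cyclin D1 (Ccnd1), which activates the kinases that open the cell cycle, fell in the high strains. It was at 7.3 to 189 CPM (median 48.8) against 60.4 to 319 CPM (median 223), with overlapping ranges and a log2 difference of -1.85 (SE 0.30, adjusted p = 2.36e-06). It was the 1 of 10 G1 cyclin and kinase genes called lower, Rb1 was the 1 called higher, and Ccnd2 differed by 0.08 (SE 0.13, adjusted p = 0.622). This G1 list had 0 higher and 1 lower of 10 in the BXD strains and 0 higher and 0 lower of 10 (median 0.11) with the clock ratio. Genes of dividing cells were nevertheless higher in a part of the high strains. Mki67, the proliferation marker, ran from 1.03 to 171 CPM (median 8.86) in the high and from 1.13 to 10.3 CPM (median 3.56) in the low strains, so the lowest values were alike while the upper end was far apart. Its log2 difference was 2.84 (SE 0.50, adjusted p = 1.14e-05).

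In all, 13 of 18 proliferation genes were higher and 1 lower, with a median of 1.14. The list has 26 genes, and 8 of them, Ccnb1, Plk1 and Cdc20 included, did not pass the filter on low counts. Summed over the tested genes the level was 35.2 to 474 CPM (median 68.9) in the high and 27.3 to 72.1 CPM (median 54.7) in the low strains. The medians of the sum were thus close, and the upper end differed most. Top2a, which untangles DNA at division, was at 0.934 to 51.3 CPM (median 3.89) against 1.39 to 5.99 CPM (median 2.36) and Ccna2, the cyclin of DNA synthesis, at 0.187 to 20.5 CPM (median 1.95) against 0.394 to 2.14 CPM (median 0.916). Their log2 differences were 1.79 (SE 0.38, adjusted p = 1.51e-04) and 2.12 (SE 0.40, adjusted p = 2.87e-05). The BXD strains alone gave 2 of 19 higher and 1 lower, in the strains between the groups 9 of 25 rose with Cdkn1a, and with the clock ratio as a term none of 18 was called while their median was 1.22. Without single strains the count of higher genes ran from 10 to 13. The level in bulk tissue is a sum over cells, so more dividing cells and more of this RNA per cell cannot be told apart, and the same holds for each cell type list below.

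The DNA damage and repair list was mixed. Of 12 genes 4 were higher and 2 lower, against 29.2% and 24.4% of all genes, so these counts lay near the background. Gadd45b, a stress gene that is not specific to DNA damage, was at 4.46 to 42.3 CPM (median 10.1) against 0.171 to 13.4 CPM (median 1.49), a log2 difference of 2.51 (SE 0.37, adjusted p = 5.09e-07). Its relative Gadd45a, a p53 target, had a log2 difference of -0.62 (SE 0.27, adjusted p = 0.0504). The repair gene Brca1 was higher by 0.86 (SE 0.17, adjusted p = 6.28e-05) and Parp1, which senses strand breaks, lower, at a log2 difference of -0.41 (SE 0.07, adjusted p = 1.20e-05). Among the BXD strains this list had 2 higher and 3 lower of 12, and with the clock ratio 2 higher and 0 lower of 12 (median 0.16).

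The integrated stress response, in which the factor ATF4 switches on amino acid synthesis and transport genes, moved in 1 direction. Of 19 tested genes, 16 were higher and none lower, with a median log2 difference of 1.07. Ddit4 (REDD1), an inhibitor of mTORC1 that glucocorticoids also induce, led it at 11.8 to 215 CPM (median 43.7) against 2.18 to 22.2 CPM (median 4.85). Its ranges overlapped at their edges, and the log2 difference was 3.58 (SE 0.36, adjusted p = 3.02e-10). Atf3 was higher by 1.999 (SE 0.35, adjusted p = 1.14e-05), the phosphatase subunit gene Ppp1r15a (GADD34) by 1.04 (SE 0.15, adjusted p = 3.64e-07) and Atf4 by 0.39 (SE 0.08, adjusted p = 1.69e-04), while Ddit3 (CHOP) was not called at 0.32 (SE 0.20, adjusted p = 0.174).

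Single strains decided the calls of some members. Slc7a11, the cystine importer, was called at 1.18 (SE 0.35, adjusted p = 0.00446), but its medians were 2.65 and 2.40 CPM and BXH2/TyJ alone held the highest value of 51.7 CPM, and without that strain the adjusted p was 0.106. Trib3 likewise lost its call without BXH2/TyJ or BTBR T<+> tf/J. Both genes were singled out after their values were seen. Among the BXD strains 6 of 19 were higher, in the strains between the groups 7 of 20, and with the clock ratio as a term 2 of 19, namely Ddit4 at 4.19 (adjusted p = 2.04e-05) and Ppp1r15a at 1.05 (adjusted p = 0.017). The median of the list in that fit was 1.05, so calls were lost while the differences stayed about as large.

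The letters TGATGNAA, the composite element that ATF4 binds with C/EBP factors, stood before 7 of 20 genes of this list (35%) and before 3.91% of all genes. Chac1, a glutathione-degrading enzyme of this response, is shown with its match in capitals (chr2:119350992-119351228, plus strand):
Chac1: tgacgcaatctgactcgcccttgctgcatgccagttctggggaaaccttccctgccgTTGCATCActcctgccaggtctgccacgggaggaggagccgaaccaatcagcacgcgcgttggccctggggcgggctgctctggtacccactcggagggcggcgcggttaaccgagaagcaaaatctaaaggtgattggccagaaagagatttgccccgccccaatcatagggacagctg
Chac1 was at 0.531 to 24.6 CPM (median 5.85) in the high and 0.71 to 6.51 CPM (median 3.02) in the low strains, higher by 1.07 (SE 0.29, adjusted p = 0.00186).

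The endoplasmic reticulum arm did not rise with it. Of 12 ER chaperone and folding genes, 5 were lower and 1 higher. Hspa5 (BiP), its defining chaperone, was at 249.7 to 1243 CPM (median 400.2) against 253 to 768 CPM (median 416.6), with a log2 difference of 0.16 (SE 0.15, adjusted p = 0.369). Pdia4 was lower, at a log2 difference of -0.39 (SE 0.09, adjusted p = 6.35e-04) and the transcription factor gene Xbp1 at -0.31 (SE 0.09, adjusted p = 0.00264), and Herpud1 was the gene called higher, by 0.36 (SE 0.11, adjusted p = 0.00576). BXD strains alone gave 0 higher and 4 lower of 12, and the fit with the clock ratio 0 higher and 1 lower of 12 (median -0.35).

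Glucocorticoid and FoxO targets rose in larger number than any other list of 15 or more genes. Of 20 tested, 17 were higher and none lower, with a median log2 difference of 0.996. Fkbp5, a chaperone that damps the glucocorticoid receptor, was at 147 to 455 CPM (median 268) in the high and 27.3 to 138 CPM (median 72.2) in the low strains. All 20 high strains were above all 20 low strains, and the log2 difference was 1.88 (SE 0.17, adjusted p = 3.28e-11). Igfbp1, an insulin-repressed FoxO target that binds insulin-like growth factors, was at 210.5 to 2842 CPM (median 833) against 13.2 to 275 CPM (median 48.2), a rise of 3.82 (SE 0.37, adjusted p = 1.14e-10).

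Cebpd, a C/EBP factor, rose by 1.60 (SE 0.15, adjusted p = 1.19e-10) and the metallothionein gene Mt2 by 2.13 (SE 0.29, adjusted p = 1.95e-07). The list was not uniform, since Tsc22d3 (GILZ), a textbook glucocorticoid target, had a log2 difference of -0.13 (SE 0.17, adjusted p = 0.552). Within the BXD family 15 of 20 were higher, in the strains between the groups 9 of 20 had an upward slope, and with the clock ratio as a term 8 of 20 were higher (median 0.85), Fkbp5 among them at 1.94 (adjusted p = 1.93e-04) and Igfbp1 at 3.22 (adjusted p = 3.93e-04). The labels give neither the time of collection nor the fasting state, and the part of either in these values was not tested.

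**Figure D4:**
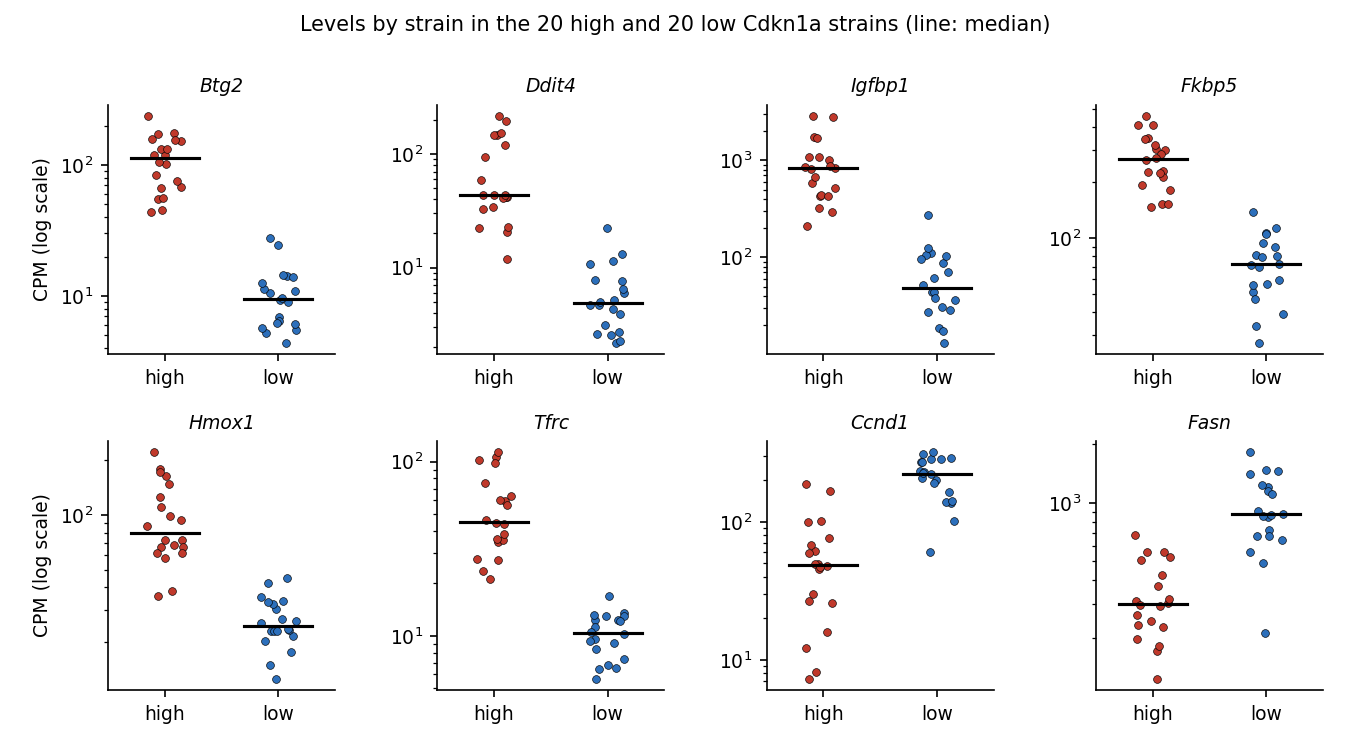
CPM of 8 genes on log axes in each of the 20 high and 20 low strains, with a line at each median. Btg2, Fkbp5 and Tfrc show no overlap between the groups, Hmox1 overlaps at the edges of its ranges, and Ccnd1 and Fasn are lower in the high strains with overlap.

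Genes of the senescence and secretory list, which holds products that senescent cells release or display, rose in part. Here 7 of 14 genes were higher and 1 lower. The urokinase receptor gene Plaur was at 0.242 to 9.19 CPM (median 2.2) in the high and 0.0939 to 1.26 CPM (median 0.611) in the low strains, a rise of 2.23 (SE 0.30, adjusted p = 1.58e-07). The adhesion receptor gene Icam1 rose by 0.85 (SE 0.13, adjusted p = 1.67e-06), while the chemokine gene Cxcl1 had a difference of 0.42 (SE 0.40, adjusted p = 0.387) and Il6, Tnf and Ccl2 did not pass the filter on low counts. In BXD strains 6 of 14 were higher and 0 lower, and with the clock ratio as a term 2 of 14 were higher and 1 lower (median 0.46). Cxcl1 changed sign with that term.

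Single iron genes stood out from a list whose calls leaned to the higher side. Both directions pooled, its share of calls was near that of all genes. Tfrc, the transferrin receptor that is degraded as RNA when cells are rich in iron, was at 21.2 to 112.9 CPM (median 45.2) in the high and 5.67 to 16.8 CPM (median 10.4) in the low strains. No high strain overlapped a low strain, and the log2 difference was 2.42 (SE 0.19, adjusted p = 1.65e-12), 2.37 (adjusted p = 4.15e-05) among the BXD strains alone. The importer gene Slc11a2 (DMT1) rose by 1.31 (SE 0.15, adjusted p = 2.83e-09) and Ncoa4, the receptor for breakdown of ferritin, by 0.61 (SE 0.07, adjusted p = 1.85e-08). Ireb2, the iron sensor that stabilises Tfrc RNA, was lower, at a log2 difference of -0.53 (SE 0.07, adjusted p = 4.97e-08).

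Hamp, which encodes the iron hormone hepcidin, did not differ beyond the spread of the strains, at 337.9 to 1346 CPM (median 856) against 235 to 1163 CPM (median 883) and a log2 difference of -0.05 (SE 0.14, adjusted p = 0.763). Of 24 tested iron genes 11 were higher (against 29.2% of all genes) and 2 lower (against 24.4%), with a median of 0.10. In BXD strains 7 were higher and 2 lower, and with the clock ratio as a term 5 and 2 (median 0.09). The iron content of these livers was not analysed here.

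Oxidative stress genes controlled by NRF2 rose in part. Hmox1, which opens heme and releases its iron, was at 35.7 to 221 CPM (median 80.01) against 12.6 to 44.8 CPM (median 24.4), a rise of 1.91 (SE 0.19, adjusted p = 3.23e-10). Nqo1, a quinone reductase and the usual NRF2 marker, rose by 0.96 (SE 0.21, adjusted p = 1.91e-04) and G6pdx by 0.78 (SE 0.11, adjusted p = 3.70e-07). In contrast Gclc, which makes glutathione, had a difference of -0.05 (SE 0.11, adjusted p = 0.719), and Me1, shared with fat synthesis, fell by 0.85 (adjusted p = 2.83e-05). Of 18 tested genes 11 were higher and 1 lower, among the BXD strains 7 and 1, and with the clock ratio as a term 4 and 1 (median 0.82). Glutathione transferases such as Gsta2 have near copies, so their counts are uncertain. Of 11 ferroptosis genes 5 were higher and 2 lower, and Gpx4, the enzyme that prevents this death, had a difference of 0.16 (SE 0.07, adjusted p = 0.0704). The ferroptosis list had 2 higher and 0 lower of 11 in the BXD strains and 1 higher and 0 lower of 11 (median 0.19) with the clock ratio.

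Genes of lipid synthesis fell together. All 12 tested lipogenic genes were lower (against 24.4% of all genes), with a median log2 difference of -0.95, and 10 of 12 were lower among the BXD strains. Fatty acid synthase (Fasn) was at 124 to 680.1 CPM (median 301) against 213 to 1820.2 CPM (median 871), a log2 difference of -1.50 (SE 0.20, adjusted p = 1.46e-07). Its regulators Srebf1 and Mlxipl, which respond to insulin and to glucose, differed by -1.07 (SE 0.14, adjusted p = 1.35e-07) and -0.74 (SE 0.10, adjusted p = 2.64e-07). In the strains between the groups 4 of 12 had a downward slope, and with the clock ratio as a term 3 of 12 were lower (median -0.79).

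Cholesterol synthesis fell as widely, in 17 of 19 genes, with a median of -0.98. Sc5d, late in the pathway, was at 21.5 to 314 CPM (median 103.8) against 163 to 762 CPM (median 349.8), a log2 difference of -1.79 (SE 0.24, adjusted p = 7.93e-08). Sqle was not called at -0.59 (SE 0.33, adjusted p = 0.127). Within the BXD family 17 of 19 were lower and in the strains between the groups 16 of 19. With the clock ratio as a term the count was 1 of 19 and the median 0.01.

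A shared promoter feature of these genes is shown for Hmgcs1, an early enzyme. The CCAAT box, the partner element of the sterol factor SREBP, stood in 11 of 11 cholesterol genes with a window (100%) and in 37.5% of all genes, while the sterol element TCACNCCAC stood in 1 of 11 (9.09%) and in 1.22%. The 3 CCAAT boxes of Hmgcs1, all on the reverse strand, are in capitals (chr13:119690101-119690350, plus strand):
Hmgcs1: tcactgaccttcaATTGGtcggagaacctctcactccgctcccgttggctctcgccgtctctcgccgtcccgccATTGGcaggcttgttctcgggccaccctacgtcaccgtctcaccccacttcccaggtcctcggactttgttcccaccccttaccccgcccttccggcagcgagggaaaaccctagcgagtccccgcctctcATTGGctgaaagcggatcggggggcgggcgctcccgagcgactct
Hmgcs1 was at 32.7 to 259 CPM (median 125) in the high and 77.8 to 678 CPM (median 271) in the low strains, a log2 difference of -1.28 (SE 0.27, adjusted p = 1.11e-04). It was singled out for its window after its values were seen.

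Hepatocyte function genes differed in both directions. Cyp7a1, the rate-limiting enzyme of bile acid synthesis, was at 3.68 to 164 CPM (median 26.6) against 58.95 to 558 CPM (median 226), a difference of -2.76 (SE 0.36, adjusted p = 7.12e-08), and the detoxifying Cyp1a2 and Cyp2f2 were lower, at log2 differences of -1.74 (SE 0.35, adjusted p = 6.10e-05) and -1.72 (SE 0.26, adjusted p = 1.16e-06). Hnf4a, the master regulator of hepatocytes, was higher by 0.43 (SE 0.08, adjusted p = 3.09e-05), and Alb had a difference of 0.18 (SE 0.10, adjusted p = 0.136). In sum 6 of 16 hepatocyte genes were lower and 3 higher, against 24.4% and 29.2% of all genes. Both directions pooled, the share of these genes called was near the background. Their BXD count was 1 higher and 5 lower of 16 and that with the clock ratio 0 higher and 4 lower of 16 (median -0.57). Of the PPARA targets 3 of 17 were higher and 5 lower, also against 29.2% and 24.4% of all genes, so these counts say little about the list. As single genes, the lipid droplet genes Plin4 and Plin5 rose by 2.12 (SE 0.30, adjusted p = 2.96e-07) and 1.37 (SE 0.20, adjusted p = 8.40e-07), whereas Fabp1 and Vnn1 fell to log2 differences of -1.79 (SE 0.22, adjusted p = 2.53e-08) and -1.87 (SE 0.35, adjusted p = 2.82e-05). For the PPARA list the BXD strains gave 6 higher and 1 lower of 17 and the fit with the clock ratio 1 higher and 3 lower of 17 (median -0.91), where the median without the term was 0.33.

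The male pattern of liver gene expression was lower in the high strains, although all mice were male. Of 13 genes known to be higher in male liver, 12 were lower and none higher, with a median of -2.27. All 14 tested were lower among the BXD strains, 5 of 15 had a downward slope between the groups, and 8 of 13 were lower with the clock ratio as a term (median -2.96). Nudt7 was at 4.84 to 84.5 CPM (median 31.8) against 73.7 to 540.0 CPM (median 206.7), a difference of -2.94 (SE 0.28, adjusted p = 6.03e-11), and the steroid hydroxylase gene Cyp7b1 at 1.57 to 42.8 CPM (median 5.55) against 10.03 to 143 CPM (median 25.1), a difference of -2.27 (SE 0.38, adjusted p = 4.60e-06). Genes of the female pattern did not rise to match, with 3 of 14 higher and 1 lower, 3 higher and 1 lower of 14 among the BXD strains and 2 higher and 0 lower of 14 (median -0.54) with the clock ratio.

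The 10 largest falls were all major urinary protein genes, which growth hormone and androgens maintain in males. Mup7 was at 0 to 3.39 CPM (median 0.0885) in the high and 0.382 to 4135 CPM (median 13.3) in the low strains, with a fitted log2 difference of -9.37 (SE 1.24, adjusted p = 8.61e-08) of the group means, and its values spread widely within the low strains. Mup20, which encodes the pheromone darcin, was at 1.003 to 95.7 CPM (median 5.14) against 17.7 to 7119 CPM (median 226), a difference of -5.45 (SE 0.77, adjusted p = 2.79e-07). All 14 tested genes of the family were lower, 14 among the BXD strains and 13 with the clock ratio, while 8 of the 22 family members did not pass the filter on low counts. Several tested members were near 0 in the high strains, such as Mup7, Mup13 and Mup18 with medians of 0.0885, 0 and 0 CPM. Such members passed the filter through the low strains, so their direction was largely set by it and the count is a description. They are near-identical copies whose counts can be shared among them, and the family was grouped after its values were seen. The family and the list of male genes above overlap, and Mup17, which did not pass the filter on low counts, is in both.

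Genes of other cells in the tissue were higher as well. Neutrophil genes had a summed level of 1.03 to 344 TPM (median 68.7) in the high and 1.44 to 98.8 TPM (median 3.91) in the low strains, and the 3 of 10 that passed the filter on low counts (S100a8, S100a9 and Ngp) were all higher. In the low strains the medians of S100a8 and Ngp were only 0.305 and 0.0867 CPM, so these genes passed the filter mainly through the high strains. Their direction was thus largely set by the filter, and the count is a description. S100a8 was at 0.0843 to 37.02 CPM (median 5.99) against 0 to 9.21 CPM (median 0.305), a difference of 3.53 (SE 0.63, adjusted p = 1.38e-05), while Camp, Mpo and Elane did not pass that filter. Of 10 endothelial genes 9 were higher (summed 143 to 304 TPM (median 213) against 97.3 to 210.5 TPM (median 145)). Of 17 macrophage genes 10 were higher, led by the scavenger receptor gene Marco at 17.3 to 177 CPM (median 77.1) against 1.49 to 43.3 CPM (median 8.31), a difference of 2.57 (SE 0.34, adjusted p = 8.64e-08). The Kupffer cell gene Clec4f had a difference of 0.06 (SE 0.14, adjusted p = 0.764). Of 5 erythroid genes 4 were higher, all of them globins.

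Most calls of these cell lists were lost with the clock ratio as a term. The endothelial list then had 1 higher and 0 lower of 10 (median 0.14), against a median of 0.53 without the term, and the macrophage list 3 higher and 0 lower of 17 (median 0.25), against 0.55. Neutrophil genes had 0 higher and 0 lower of 3 (median 2.61), against 3.53, and erythroid genes 0 higher and 0 lower of 5 (median 1.85), against 2.24. In BXD strains alone the endothelial list gave 6 higher and 0 lower of 10, the macrophage list 7 higher and 0 lower of 17, the neutrophil list 1 higher and 0 lower of 5 and the erythroid list 1 higher and 0 lower of 6.

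Lymphocyte and bile duct genes moved little. Of 10 lymphocyte genes only Ighm and Cd4 passed the filter, and the call of Ighm rested on NZB/BlNJ, since without that strain its log2 difference was 0.10 (adjusted p = 0.818). Krt7 and Epcam, which define bile duct cells, had differences of 0.23 (SE 0.18, adjusted p = 0.3) and 0.19 (SE 0.17, adjusted p = 0.367). Of 15 fibrosis and stellate cell genes 8 were higher, among them Vim by 0.89 (SE 0.13, adjusted p = 8.32e-07) and Tgfb1 by 0.76 (SE 0.13, adjusted p = 9.56e-06), whereas the main scar collagens Col1a1 and Col1a2 had differences of -0.04 (SE 0.28, adjusted p = 0.914) and 0.23 (SE 0.21, adjusted p = 0.354). This list had 5 higher and 0 lower of 15 in the BXD strains and 1 higher and 0 lower of 15 (median 0.27) with the clock ratio, against a median of 0.35 without it. With summed globin as a term in the fit 14 p53 targets were higher, against 16 without it, and 13 genes of the integrated stress list, against 16. The part of blood and of other cells in the remaining values was not tested.

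Acute phase genes, which the liver makes under inflammatory signals, were higher in 11 of 19 and lower in none. Lcn2, which binds bacterial iron carriers, was at 14.03 to 1592 CPM (median 274) against 12.03 to 438 CPM (median 26.9), a rise of 2.96 (SE 0.52, adjusted p = 1.17e-05), and Serpina3n rose by 1.30 (SE 0.22, adjusted p = 6.68e-06). The most inducible members did not pass the test: Saa1 differed by 0.87 (SE 0.67, adjusted p = 0.279) and Saa2 by 1.47 (SE 0.82, adjusted p = 0.126), with single strains above 500 CPM in both groups. Among the BXD strains 3 of 19 were higher, in the strains between the groups 10 of 19, and with the clock ratio as a term none was higher and 1 was lower (median -0.12, against 0.62 without it).

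**Figure D5:**
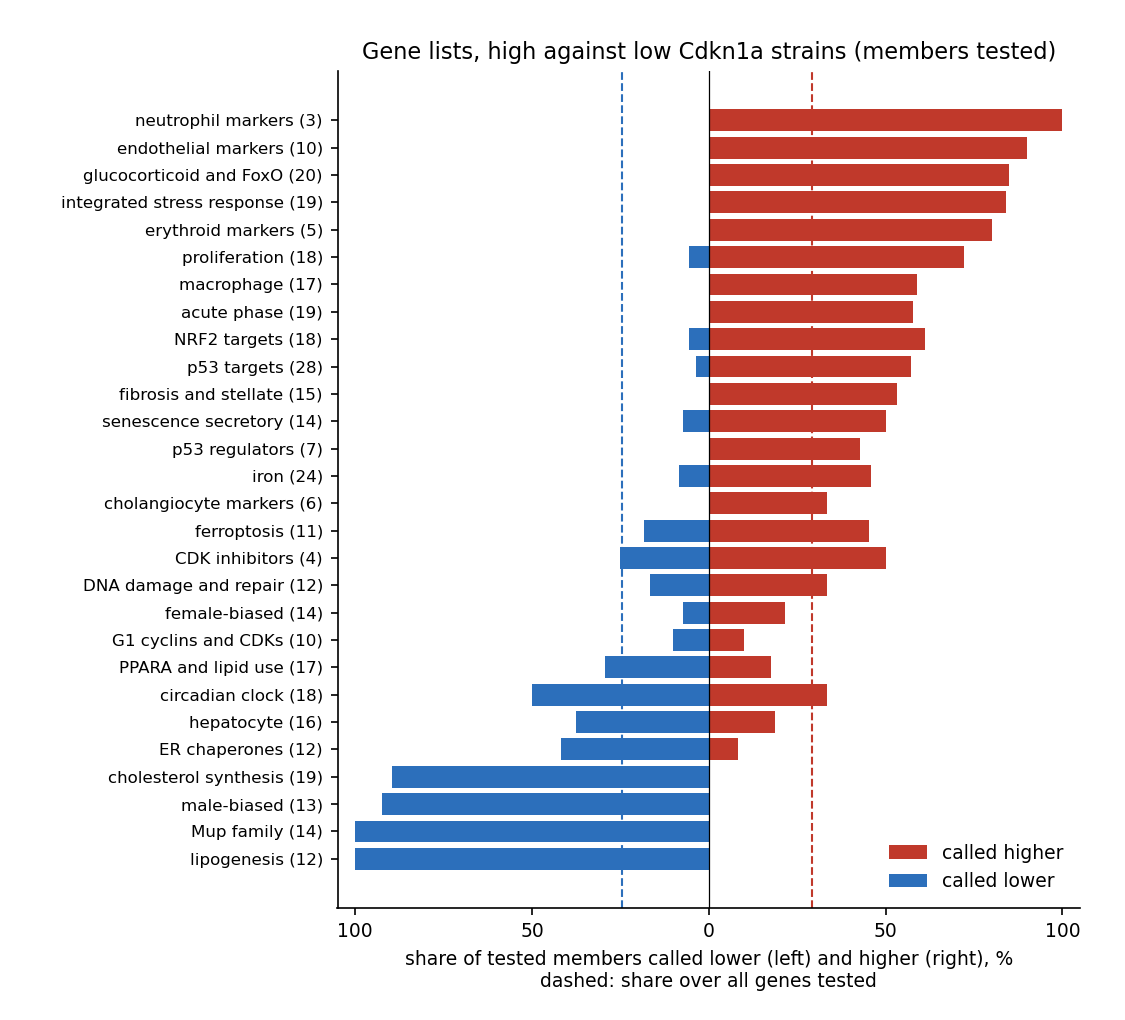
Share of tested members called lower (left) and higher (right) in percent for each gene list, with dashed lines at the shares of all genes tested, 24.4% and 29.2%. Cholesterol, lipogenic and male-biased genes extend to the left, and glucocorticoid, integrated stress and endothelial genes to the right.

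The genes with the smallest p-values were not stress genes in the main. Azin1, which protects the polyamine enzyme ornithine decarboxylase, was at 29.5 to 74.95 CPM (median 53.3) in the high and 90.1 to 141.2 CPM (median 123) in the low strains, a log2 difference of -1.21 (SE 0.08, adjusted p = 3.63e-15). Mcm10, a factor that starts DNA replication, was at 1.77 to 10.2 CPM (median 4.37) against 12.4 to 64.9 CPM (median 29.7), a difference of -2.65 (SE 0.20, adjusted p = 4.05e-13), opposite to the proliferation list. Mmp14, a membrane protease, rose by 0.998 (SE 0.07, adjusted p = 3.90e-14), and Acy3, an aminoacylase, fell to a difference of -1.52 (SE 0.12, adjusted p = 1.32e-12). The groups did not overlap in any of these 4 genes, nor in Prkcz, Nr3c2 (the mineralocorticoid receptor), Gpr146, Serinc3 and Nucks1. Among the largest rises beside those already given were the fatty acid receptor gene Ffar4 at 5.58 (SE 0.53, adjusted p = 7.59e-11), the estrogen sulfotransferase gene Sult1e1 at 4.14 (SE 0.63, adjusted p = 1.16e-06), whose slope in the strains between the groups was -0.33 (adjusted p = 0.35), and the adenylate cyclase gene Adcy1 at 3.80 (SE 0.37, adjusted p = 1.20e-10), the last without overlap.

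Over all ranked strains the level most like that of Cdkn1a, by Spearman's rho on log2 CPM, was that of Desi2 at 0.849, followed by Btg2 at 0.833 and Eif1a at 0.826. Rbpms had 0.819, Mmp14 0.813, Baiap2 0.802, Igfbp1 0.799 and Sema6b 0.799. The most opposed were Acy3 at -0.889, Azin1 at -0.875, Dbp at -0.854 and Tert, the catalytic subunit of telomerase, at -0.843. Hectd3 (-0.840), Apol7a (-0.834), Mcm10 (-0.833) and Slc2a5 (-0.824), a fructose transporter gene, came next. In the 73 strains between the groups these 16 genes kept their sign, with Acy3 at -0.780, Tert at -0.737 and Desi2 at 0.697. Such values were common, since 14.6% of 12911 genes had a rho beyond 0.5 in either direction.

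The neighbours of Cdkn1a on chromosome 17 did not form a block. Of the 4 nearest tested genes on each side, Srsf3, a splicing factor gene and the nearest one upstream, was higher by 0.52 (SE 0.06, adjusted p = 2.27e-08), Pi16 by 0.45 (SE 0.15, adjusted p = 0.0125) and BC004004 by 0.63 (SE 0.12, adjusted p = 6.32e-05). Pnpla1 was lower, at a log2 difference of -0.93 (SE 0.18, adjusted p = 4.09e-05), and Kctd20, Stk38, Cpne5 and Ppil1 were not called. On the whole chromosome 49.02% of genes were called, the lowest share of any chromosome tested, where the highest was 59.7%.

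The extremes of other genes fell partly on the same strains. Of the 20 high strains 13 were among the 20 lowest for Dbp, 12 among the 20 highest for Tfrc, 12 for Btg2, 9 for Hmox1 and 9 for Lcn2. Of the 20 low strains 16 were among the 20 lowest for Hmox1, 14 for Btg2 and 13 for Arntl. These are the genes with much sharing, and others shared less. For Hamp 3 of the high strains were among the 20 highest and 5 among the 20 lowest, and of the low strains 2 and 3. For Sqle these counts were 2 and 8 for the high strains and 5 and 2 for the low strains. Not all genes ranked in this way are listed.

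The diet study showed how Cdkn1a stood on different iron intakes in 1 strain, C57BL/6J. The 3 mice on 2% iron had 112.8, 81.8 and 48.9 TPM, within the range of the high panel strains, while those on chow had 25.97, 15.4 and 8.92 TPM. On 500 ppm iron the values were 70.04, 18.1 and 17.9 TPM, and on 50 ppm they were 8.34, 66.5 and 15.3 TPM. On 2% iron with cellulose as fibre they were 90.3, 72.6 and 67.1 TPM. The 2% groups were thus high throughout, and 1 mouse in each of the 500 and 50 ppm groups stood far above the other two. The C57BL/6J mouse of the panel, on 2% iron, had 19.6 TPM, and the tables of the studies were made separately.

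In edgeR, Cdkn1a on 2% iron differed from chow by 2.14 (SE 0.68, adjusted p = 0.0362) on the log2 scale and from 50 ppm by 1.46 (SE 0.66, adjusted p = 0.155). The call against chow was lost without the first or the second 2% mouse or the second or the third chow mouse, with log2 differences of 1.81 to 2.15 and adjusted p of 0.0663 to 0.118, and the difference from 50 ppm was called at 2.81 (adjusted p = 0.0122) without the second 50 ppm mouse. The 500 ppm group differed from 50 ppm by 0.27 (SE 0.66, adjusted p = 1) and the cellulose group from 2% iron by -0.17 (SE 0.64, adjusted p = 0.941). Both main contrasts use the same mice on 2% iron.

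The p53 list rose with 2% iron in a pattern that can be set beside the strains. Of 28 tested targets 10 were higher and 1 lower against 50 ppm, where 8.52% of all genes were higher and 7.17% lower, and 11 were higher and 1 lower against chow, where 11.9% and 10.9% were. The first of these counts fell to 5 or 6 without any 2% mouse or without the first 50 ppm mouse. Btg2 was at 48.8, 36.6 and 69.04 CPM on 2% iron, 6.88, 11.5 and 7.62 CPM on 50 ppm and 5.55, 6.34 and 16.4 CPM on chow. All 2% mice were above all others of these groups, by 2.57 (SE 0.43, adjusted p = 0.00199) and 2.42 (SE 0.42, adjusted p = 0.00128) in edgeR. Eda2r rose by 2.56 (SE 0.47, adjusted p = 0.00337) and 2.22 (SE 0.45, adjusted p = 0.00325), and Mdm2 by 0.30 (SE 0.09, adjusted p = 0.0448) and 0.36 (SE 0.09, adjusted p = 0.0142). Ccng1, not called between the strain groups, was higher against chow by 0.42 (SE 0.11, adjusted p = 0.016).

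Some other leading genes and lists of the strain comparison were read in the same mice, and they did not all go the same way. Male-biased genes were lower on 2% iron in 15 of 15, against 50 ppm and against chow. Lipogenic genes, lower in the high strains, had 1 higher and 0 lower of 12 against 50 ppm and 4 higher and 0 lower against chow. Tfrc had a mean of 23.2 CPM on 2% iron, 13.5 CPM on 50 ppm and 29.5 CPM on chow. Mcm10 was at 7.96, 8.36 and 7.94 CPM on 2% iron and 50.98, 22.2 and 31.3 CPM on 50 ppm, a difference of -2.11 (SE 0.30, adjusted p = 8.88e-04), and Mup7 at 10.9, 10.7 and 15.4 CPM against 9977, 896 and 725 CPM. Both genes differed in the direction of the high strains, although Mup7 on 2% iron stayed above its level in every high strain (0 to 3.39 CPM). Cyclin D1 went the other way: Ccnd1 was at 49.6, 103.5 and 130.1 CPM on 2% iron and 20.1, 15.3 and 12.3 CPM on 50 ppm, a rise of 2.57 (SE 0.67, adjusted p = 0.0201), whereas it was lower in the high than in the low strains.

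The clock ratio varied within every diet group. Log2 Arntl minus Dbp was 2.58, 3.75 and 0.39 on 2% iron, 2.84, 0.70 and -3.48 on chow, and -2.24, 2.04 and -1.85 on 50 ppm. On 500 ppm it was 3.73, -2.03 and 1.44. Within the 500 ppm, 50 ppm and chow groups the mouse with the highest Cdkn1a also had the highest ratio, whereas on 2% iron and on 2% iron with cellulose another mouse did. In the cellulose group the ratios were -4.47, -5.45 and -0.46, so those mice combined a high Cdkn1a with lower ratios than the mice on 2% iron.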

How the data were processed

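Liver RNA-seq of 130 mice was used, of which those of the ranked panel strains and of the diet study enter here. The authors deposited estimated counts per gene and TPM per gene for each study, and kallisto 0.46 and the build mm10 are named in the submitters' processing notes. The strand used in counting is not given in the sources used here, so overlapping and antisense genes cannot be told apart. The deposited estimated counts were rounded to whole numbers, where the design had named counts. Identifiers were matched to GENCODE M21 symbols, 35612 of 35711 in the panel and 34845 of 35274 in the diet table, and sequences came from RefSeq windows on GRCm38.p6, printed only where no exon lies.

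Groups followed the TPM of Cdkn1a. Tests used edgeR 4.0.16 (quasi-likelihood, TMM factors, filterByExpr, two-sided) in R 4.3.3 with Benjamini-Hochberg adjustment over all genes tested and calls at an adjusted p under 0.05. CPM values are scaled with TMM factors and log2 CPM used a prior count of 2. The 5 diet groups of 3 mice were fitted together. The fit was checked on simulated counts. Python 3.11.15 with numpy 2.4.6, pandas 2.3.3, scipy 1.17.1 and matplotlib 3.10.9 made the tables and figures.

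The members and the 29 gene lists were chosen with earlier results of these data known. Genes were named by a rule: all p53 targets, the 4 tested neighbours on each side of Cdkn1a, and of each list the first 2 members and the 4 called members with the smallest p. The rule adds the 10 largest rises and falls and the 10 smallest p-values, with a mean of at least 1 CPM for rises and falls, and the 8 genes most and least like Cdkn1a. A few genes that the rule takes are not reported here. The few names outside this rule were picked with their values known. Alternatives were RLE factors, other filters, DESeq2 1.42.0, limma 3.58.1 on log2(TPM + 1) and log2(TPM + 0.1), other group sizes, families, library totals, substrains, a ranking by CPM, and each strain or mouse left out. The fits within the 73 other strains, with the Arntl to Dbp ratio and with summed globin were chosen after seeing the data.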

Additional observations from a re-analysis of the deposited data

How the results depend on the processing

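Counts fell by more than 1.5 times under 4 settings. With 10 strains against 10, 2484 genes were higher. Among the BXD strains alone 3702 genes were called, 1876 higher and 1826 lower, with 7 p53 targets higher, where fewer strains entered. With the Arntl to Dbp ratio as a term 1985 were called, 895 higher and 1090 lower, with 4 p53 targets higher, and over the 73 other strains 2971 were called, 1553 higher and 1418 lower, with 7 p53 targets higher. The remaining settings kept the count of calls between 5454 (limma on log2(TPM + 0.1)) and 8316 (continuous Cdkn1a over all ranked strains), and p53 targets called higher between 12 and 18.

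Leaving out 1 strain at a time gave 6739 to 7148 genes called, 3448 to 3874 higher and 3076 to 3415 lower, and 15 to 18 p53 targets higher. Leaving out 1 mouse at a time moved Cdkn1a between 1.02 and 2.81 for 2% iron against 50 ppm and between 1.81 and 2.55 against chow, on the log2 scale. The other contrasts ran from -0.60 to 1.63 for 500 ppm against 50 ppm and from -0.40 to 0.13 for cellulose. The p53 targets called higher ran from 5 to 7 against 50 ppm and from 8 to 13 against chow.

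Some of the named genes changed sign on the log2 scale, and the cause was not tested. Over the 73 other strains they were A1bg (0.69), Cdkn1c (-0.069), Pi16 (-0.049), Sesn1 (-0.050), Sult1e1 (-0.33) and Sult3a1 (-0.047). With the Arntl to Dbp term they were Adgre1 (-0.39), Aen (-0.018), Cxcl1 (-2.66), Fas (-0.75), Ighm (-1.24), Lyve1 (-1.14), Nfil3 (-0.22), Stard4 (0.010) and Tef (0.17). In BXD strains they were Cdkn1b (-0.013) and Ighm (-0.25), and in limma Rb1 (-0.18 with a pseudocount of 0.1 and -0.17 with 1). Depth limits the low strains, where Cdkn1a rests on 9 to 52.4 estimated counts.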
